A study of Homo sapiens with 17 samples.

Results

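The genes described here make the machinery that cleaves and polyadenylates pre-mRNA 3' ends and the nuclear RNA exosome that degrades RNA from its 3' end. They were chosen by name, as the rows of 40 listed genes, and all 40 were found among the 14538 genes of the deposited tables. They fall into 10 groups, namely the core of the cleavage and polyadenylation specificity factor (CPSF), cleavage factor I (CFIm), the cleavage stimulation factor (CstF), cleavage factor II (CFIIm), the poly(A) polymerases with RBBP6, XRN2 with SSU72, the 9 core exosome subunits, the exosome nucleases, MTREX with the NEXT and PAXT adaptors, and the cap-binding proteins with ARS2. The 17 libraries hold stranded RNA sequencing, after removal of ribosomal RNA, of HEK293T, a cell line from human embryonic kidney. In the INTS1-AID line both copies of INTS1, a scaffold subunit of Integrator, carry a miniAID degron, through which auxin directs the protein to degradation. The 6 groups of libraries were parental cells left untreated (3 libraries), INTS1-AID cells left untreated (3), INTS1-AID cells with 500 µM auxin for 4 h (3) beside a 4 h group without auxin (2), and INTS1-AID cells with 500 µM auxin for 12 h (3) beside a 12 h group without auxin (3). The deposited comparisons also include 2 from transient transcriptome sequencing (TT-seq), which labels newly made RNA, named for INTS1 and INTS8 and for 4 h; their libraries are not among the 17, and how many there were and how they were treated is not stated here by any source.

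In human cells CPSF binds the poly(A) signal and cuts the RNA, CFIm and CstF bind upstream and downstream of the cut, and poly(A) polymerase adds the tail. Behind the cut, XRN2 degrades the RNA still attached to RNA polymerase II (Pol II). Unstable RNAs that end early, such as upstream antisense transcripts, are handed by NEXT or PAXT to the helicase MTREX and to the exosome. Integrator has a cleavage module of its own, INTS11 with INTS9, which are paralogues of the CPSF nuclease CPSF3 and of its partner CPSF2.

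Auxin was not given to parental cells in these libraries, so effects of auxin itself and of INTS1 loss cannot be told apart. The labels do not describe replicates as separate cultures; p-values therefore reflect only how far these libraries spread, perhaps for technical reasons. In bulk RNA, fewer cells of a kind and less RNA per cell cannot be told apart. INTS1 RNA does not report on its protein. Its normalized counts were 5186, 4019 and 7384 in parental libraries 1 to 3 and 4143, 4003 and 3720 in INTS1-AID libraries 1 to 3 (log2 difference -0.44, limma adjusted p = 0.298), and in the authors' deposited table its log2 change with auxin was -0.18 at 4 h (DESeq2 adjusted p = 0.0123) and -0.16 at 12 h (DESeq2 adjusted p = 0.278). The untreated libraries held 26294938 to 39321998 reads in genes. All 9 genes of an embryonic kidney, adrenal and neural list were present, with summed normalized counts of 4718 to 5200 in parental and 5083 to 5305 in INTS1-AID libraries, against 2 of 6 blood genes (CORO1A and HBA1, summed 127 to 172), 1 of 5 fibroblast genes (PDGFRA, 22.5 to 59.8), 1 of 3 colon genes (CDX2, 884 to 1125) and 0 of 3 liver genes. In the authors' deposited table, 6 of the 9 genes of the first list rose with auxin and 0 fell at 4 h, while 5 rose and 2 fell at 12 h, where 19.2% of all genes rose at 4 h and 21.9% at 12 h. The blood gene CORO1A rose by 1.54 ± 0.17 on the log2 scale at 4 h and by 3.49 ± 0.17 at 12 h in the same table, and the colon gene CDX2 by 0.56 ± 0.08 and 0.33 ± 0.13. HBA1, with a mean count of 3, and PDGFRA did not pass at either time. The part of these changes in the members' values was not tested.

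Promoters are shown for 4 members that fell with auxin at both times, WDR33, SYMPK, EXOSC10 and NUDT21, and for 2 that rose at 12 h, CLP1 and SRRT, since the results turn on them. Each is the 250 bases just upstream of the gene's start, from RefSeq on GRCh38.p14, where 36 of the 40 members matched, and the start is that of the deposited tables on hg38. The windows are chr2:127811172-127811421 (minus strand), chr19:45863148-45863397 (minus strand), chr1:11099870-11100119 (minus strand), chr16:56451333-56451582 (minus strand), chr11:57657512-57657761 (plus strand) and chr7:100874853-100875102 (plus strand). Capitals mark 3 motifs, read on either strand. They are CCAAT, the core of the NF-Y motif, GGGCGG, a GC box, and an ETS motif spelled CCGGAAG.
WDR33: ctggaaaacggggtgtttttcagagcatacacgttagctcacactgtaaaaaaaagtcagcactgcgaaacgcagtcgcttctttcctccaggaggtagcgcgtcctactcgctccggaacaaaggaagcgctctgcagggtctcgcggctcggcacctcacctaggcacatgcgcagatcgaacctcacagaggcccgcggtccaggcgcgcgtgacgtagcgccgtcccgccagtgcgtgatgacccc
SYMPK: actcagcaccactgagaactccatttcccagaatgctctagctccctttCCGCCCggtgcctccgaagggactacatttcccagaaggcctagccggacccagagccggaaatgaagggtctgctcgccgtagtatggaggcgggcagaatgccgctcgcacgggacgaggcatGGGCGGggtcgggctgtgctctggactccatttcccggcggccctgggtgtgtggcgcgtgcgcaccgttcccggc
EXOSC10: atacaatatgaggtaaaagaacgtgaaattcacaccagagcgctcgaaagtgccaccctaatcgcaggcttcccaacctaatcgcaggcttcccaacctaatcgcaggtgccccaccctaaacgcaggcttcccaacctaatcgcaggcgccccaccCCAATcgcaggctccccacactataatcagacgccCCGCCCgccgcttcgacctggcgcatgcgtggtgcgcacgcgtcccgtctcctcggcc
NUDT21: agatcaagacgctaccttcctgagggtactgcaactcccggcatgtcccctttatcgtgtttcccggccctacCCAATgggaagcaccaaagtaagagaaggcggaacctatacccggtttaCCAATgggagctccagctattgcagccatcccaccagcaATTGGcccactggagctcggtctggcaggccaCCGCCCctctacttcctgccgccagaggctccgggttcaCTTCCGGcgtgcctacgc
CLP1: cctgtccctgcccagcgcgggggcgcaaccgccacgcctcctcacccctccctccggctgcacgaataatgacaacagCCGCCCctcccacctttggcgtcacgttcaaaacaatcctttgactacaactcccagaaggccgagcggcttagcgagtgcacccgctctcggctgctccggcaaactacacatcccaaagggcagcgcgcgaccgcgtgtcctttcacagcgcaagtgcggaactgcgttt
SRRT: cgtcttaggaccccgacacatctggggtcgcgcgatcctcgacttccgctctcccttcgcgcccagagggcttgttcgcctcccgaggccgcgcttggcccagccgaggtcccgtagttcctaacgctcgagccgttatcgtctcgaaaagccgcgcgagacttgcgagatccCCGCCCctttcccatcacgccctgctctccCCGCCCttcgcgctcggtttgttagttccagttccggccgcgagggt
The window of WDR33 held none of the 3 motifs, whereas that of NUDT21 held CCAAT 3 times and, 1 time each, GGGCGG and the ETS motif. GGGCGG stood 2 times in each of the windows of SYMPK and SRRT and 1 time in each of EXOSC10 and CLP1. The 6 windows were 59.6% (NUDT21) to 66% (SRRT) G and C. Over the 36 members' windows, GGGCGG was found in 24 (66.7%, against 42.3% of 27305 promoters), CCGGAAG in 8 (22.2%, against 8.82%), CCAAT in 14 (38.9%, against 33.0%) and TATAAA in 1, that of EXOSC8 (2.78%, against 11.1%). The NRF1 palindrome and the YY1 motif, each searched as a single spelling, were in 0 member windows and in 1.13% and 0.641% of all promoters. No motif contains another, and a match describes letters only. The 27305 promoters belong to RefSeq genes whether or not they are expressed here, with the first listed start of each gene. For members the start nearest the deposited one was taken. A background of expressed genes was not counted, so these shares do not show a trait particular to the members.

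**Figure D1:**
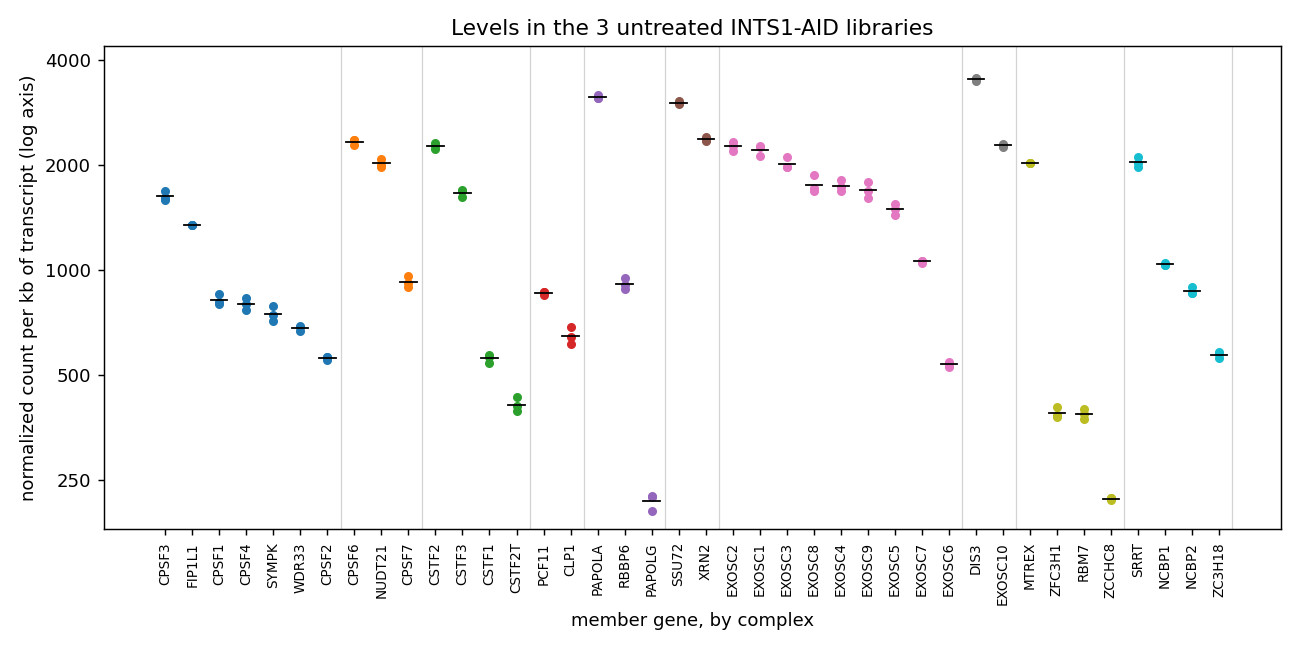
Normalized count per kilobase of transcript, on a log axis, of each of the 40 members in the 3 untreated INTS1-AID libraries (points) with the mean (line), grouped by complex. Within the exosome core the means run from 536 (EXOSC6) to 2269 (EXOSC2), while DIS3 is the highest member and PAPOLG the lowest.

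Before auxin, the members of one complex differed widely in level per kilobase of transcript. In untreated INTS1-AID cells the lowest mean was that of PAPOLG, a nuclear poly(A) polymerase, at 217 ± 11.96 normalized counts per kilobase (SD, n = 3), and the highest that of DIS3, the exosome's main nuclease, at 3525 ± 32.6. PAPOLA, the canonical poly(A) polymerase, stood at 3134 ± 36.6 and SSU72, a phosphatase of the Pol II tail, at 3019 ± 28.8. In the exosome core, which holds a single copy of each subunit, the level ran from 2269 ± 62.6 for EXOSC2 to 536 ± 8.02 for EXOSC6. The CPSF core lay between 558 ± 6.66 for CPSF2 and 1630 ± 51.8 for CPSF3, the nuclease. These ranks depend on the deposited transcript lengths. Before division by length, CPSF2, with 13003 bases, had the highest mean count of the CPSF core, 7262. EXOSC6 had 2767 with 5163 bases, and the lowest count of the exosome core was that of EXOSC7, 1102. The NEXT adaptors ZCCHC8 (221 ± 1.31) and RBM7 (386 ± 12.8) lay far below the helicase MTREX (2025 ± 2.16). MTREX was higher in this line than in parental cells, where the means were 208 for ZCCHC8, 308 for RBM7 and 1293 for MTREX.

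After 4 h with auxin, genes of the 3' end machinery fell more often than they rose. Of 40 members, 17 fell (42.5%) and 3 rose (7.5%) at a DESeq2 adjusted p under 0.05 in the authors' deposited table, where 19.2% of all 14479 genes tested fell and 19.2% rose. In either direction 20 of 40 members were called, against 38.4% of all genes. The members are well expressed, with mean counts from 706 to 12101, and among the 10937 genes whose mean count reached 100 the shares were 24.7% lower, 20.9% higher and 45.7% in either direction. The median log2 change of the members was -0.11, against 0.0048 over all genes and -0.03 over those whose mean count reached 100, and 30 of the 40 lay below 0. The changes were small: the largest fall was 32.6% and the largest rise 21.4%. With a log2 change of at least 0.3 also required, 7 members fell, 2 of them in the CPSF core and 1 in CFIm, and 0 rose. The share of all genes at this size is not given here, so these numbers have nothing to be set against.

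**Figure D2:**
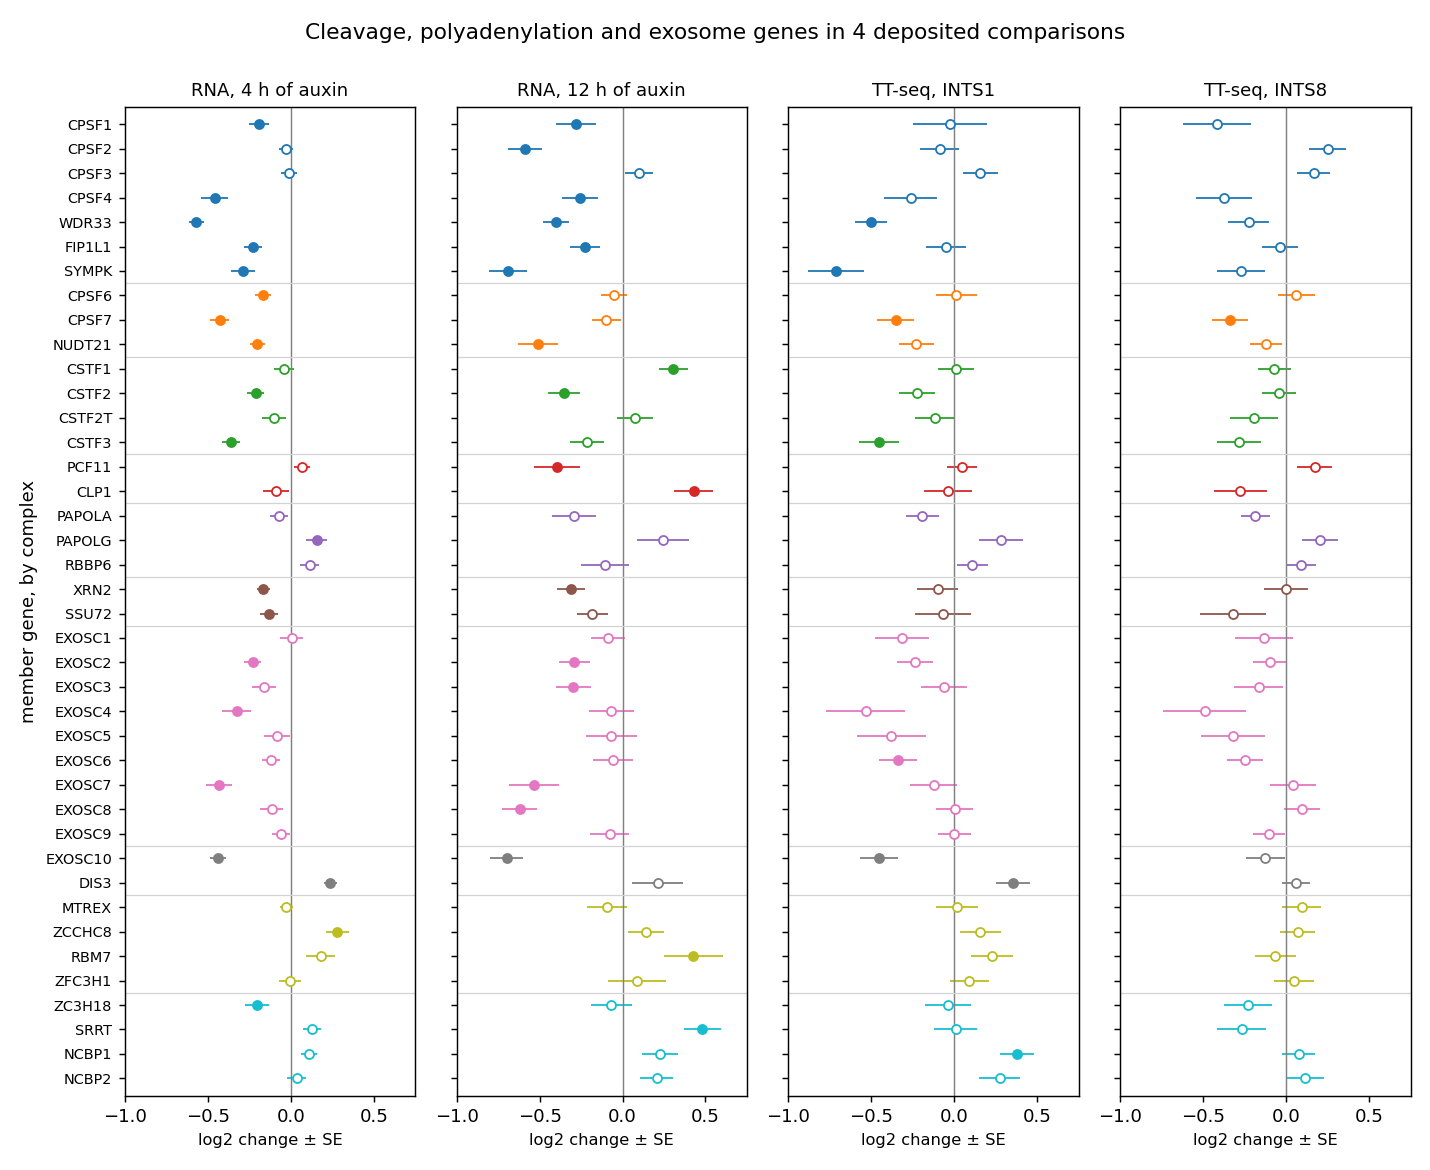
Log2 change of each member, with the standard error its p-value implies, in the 4 deposited comparisons, by complex; filled points passed a DESeq2 adjusted p under 0.05. The CPSF core lies at or left of 0 at 4 h in all 7 genes, and few points are filled in the INTS8 panel.

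In the CPSF core 5 of 7 genes fell at 4 h and none rose. WDR33, which binds the poly(A) signal, showed the largest change of any member at 4 h, with implied normalized counts of 4774 without and 3217 with auxin in the authors' deposited table (log2 change -0.57 ± 0.05, SE, DESeq2 adjusted p = 7.3e-35). CPSF4, which binds the signal beside WDR33, had implied counts of 939 and 683 (log2 change -0.46 ± 0.08, DESeq2 adjusted p = 1.83e-07). Both recognise the same signal. At 12 h WDR33 stood at -0.40 ± 0.08 (DESeq2 adjusted p = 3.85e-06). CPSF4 passed only narrowly there, at -0.25 ± 0.11 (DESeq2 adjusted p = 0.0466), and its call is lost at an adjusted p under 0.01. The scaffold SYMPK (-0.29 ± 0.07), the poly(A) polymerase tether FIP1L1 (-0.23 ± 0.05) and CPSF1 (-0.19 ± 0.06), on which the signal-binding module is built, fell by less in the authors' deposited table. The nuclease CPSF3 (-0.01 ± 0.05) and CPSF2 (-0.03 ± 0.04), its partner, did not pass.

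All 3 CFIm genes, whose products bind upstream of the cut and influence which poly(A) site is used, fell at 4 h. CPSF7, by the authors' deposited table, had implied counts of 2568 without and 1908 with auxin (log2 change -0.43 ± 0.06, DESeq2 adjusted p = 5.51e-12), and NUDT21 (-0.20 ± 0.04) and CPSF6 (-0.17 ± 0.05) fell by less. Of 4 CstF genes, which bind downstream of the cut, CSTF3 fell from an implied 2626 to 2048 (-0.36 ± 0.05, DESeq2 adjusted p = 2.84e-10) and CSTF2 fell by 0.21 ± 0.05 on the log2 scale. XRN2 (-0.17 ± 0.04) and SSU72 (-0.13 ± 0.06) also fell. Neither CFIIm gene passed, with PCF11, which binds the Pol II tail, at 0.07 ± 0.05 and the RNA kinase CLP1 at -0.09 ± 0.08.

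The 2 nucleases of the exosome moved in opposite directions at 4 h. EXOSC10, the nuclear exonuclease, had implied counts of 4136 without and 3052 with auxin in the authors' deposited table (log2 change -0.44 ± 0.05, DESeq2 adjusted p = 1.61e-17). DIS3 had implied counts of 10923 and 12886 (log2 change 0.24 ± 0.04, DESeq2 adjusted p = 3.08e-09). Of the 9 core subunits, which hold no nuclease activity in human cells, 3 fell: EXOSC7 (-0.43 ± 0.08), EXOSC4 (-0.33 ± 0.09) and EXOSC2 (-0.23 ± 0.05). The other 6 ran from -0.16 (EXOSC3) to 0.01 (EXOSC1) and did not pass.

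Among the adaptors of the exosome, ZCCHC8, the scaffold of NEXT, rose from an implied 1104 to 1341 in the authors' deposited table (log2 change 0.28 ± 0.07, DESeq2 adjusted p = 0.000234), while ZC3H18, which links NEXT to the cap-binding complex, fell (-0.20 ± 0.07, DESeq2 adjusted p = 0.0132). PAPOLG was the third gene that rose (0.16 ± 0.06, DESeq2 adjusted p = 0.0353). MTREX (-0.03 ± 0.04) and ZFC3H1 (-0.0047 ± 0.07), the scaffold of PAXT, did not pass.

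At 12 h, too, more members fell than rose. By the calls of the authors' deposited table, 15 of 40 fell (37.5%, against 22.3% of 14485 genes tested) and 4 rose (10%, against 21.9%); among the 11063 genes whose mean count reached 100 the shares were 26.2% lower, 22.9% higher and 49.1% in either direction. In either direction 19 of 40 members were called, against 44.2% of all genes. The direction of the 12 h comparison is not fixed by its own columns and was read from its correlation with 4 h across genes. The median log2 change was -0.10, against 0.01 over all genes, and 28 of 40 lay below 0. EXOSC10 fell the furthest, from an implied 4011 to 2475 (log2 change -0.70 ± 0.10, DESeq2 adjusted p = 2.23e-11), and SYMPK nearly as far, from 4959 to 3073 (-0.69 ± 0.11, DESeq2 adjusted p = 1.24e-08). Both genes had also fallen at 4 h. The exosome ring subunit EXOSC8, by the authors' deposited table, fell from an implied 886 to 576 (-0.62 ± 0.10, DESeq2 adjusted p = 2.32e-08) and CPSF2 from 3945 to 2623 (-0.59 ± 0.10, DESeq2 adjusted p = 9.09e-08). EXOSC7 fell by 0.53 ± 0.15 and NUDT21 by 0.51 ± 0.12 on the log2 scale.

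By complex, 6 of 7 CPSF core genes fell at 12 h, the exception being CPSF3 (0.10 ± 0.09), and 4 of 9 exosome core genes fell, EXOSC8, EXOSC7, EXOSC3 (-0.30 ± 0.11) and EXOSC2 (-0.29 ± 0.09). At a log2 change of at least 0.3 these counts were 3 (CPSF2, WDR33 and SYMPK) and 2 (EXOSC7 and EXOSC8). The share of all genes at that size is not given here. The CFIIm pair split in the authors' deposited table: PCF11 fell (-0.40 ± 0.14, DESeq2 adjusted p = 0.0107), whereas CLP1 rose from an implied 602 to 810 (0.43 ± 0.12, DESeq2 adjusted p = 0.00118). CstF split too, with CSTF2 at -0.35 ± 0.09 and CSTF1 at 0.31 ± 0.09, each past the test. SRRT, which encodes ARS2, the partner of the cap-binding complex in RNA decay and export, showed the largest rise, from an implied 7206 to 10058 (0.48 ± 0.11, DESeq2 adjusted p = 7.94e-05). RBM7, the RNA-binding subunit of NEXT, rose by 0.43 ± 0.18 from a low implied count of 261 (DESeq2 adjusted p = 0.0401).

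Over both times, 28 of 40 members were called at 1 time at least, against 56.9% of all genes, and 11 at both, against 25.8%. All 11 were lower at both times: CPSF1, CPSF4, WDR33, FIP1L1 and SYMPK of the CPSF core, NUDT21, CSTF2, XRN2, EXOSC2, EXOSC7 and EXOSC10. Of all genes tested at both times, 11.6% were called lower at both and 13.5% higher at both, the latter against 0 members, at the authors' DESeq2 threshold; 6 members were higher at an unadjusted p under 0.05 at 4 h and 6 at 12 h. No member was called in opposite directions, which held for 0.671% of all genes. The sign of the 12 h comparison was itself read from its correlation with 4 h across genes. Agreement in direction between the times is therefore partly set by that choice, and so is the sign of the correlation given below. At a size of 0.3 or more on the log2 scale at each time, 3 members, WDR33, EXOSC7 and EXOSC10, were lower at both. The shares of all genes at this size and at the unadjusted p are not given here. Across the 40 members the log2 changes of the times, which share no libraries, had a Pearson's r of 0.62 and a Spearman's rho of 0.62, as a description over genes, which are not independent replicates. The 12 members called at neither time included CPSF3, PAPOLA, RBBP6, MTREX, ZFC3H1 and both cap-binding proteins.

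**Figure D3:**
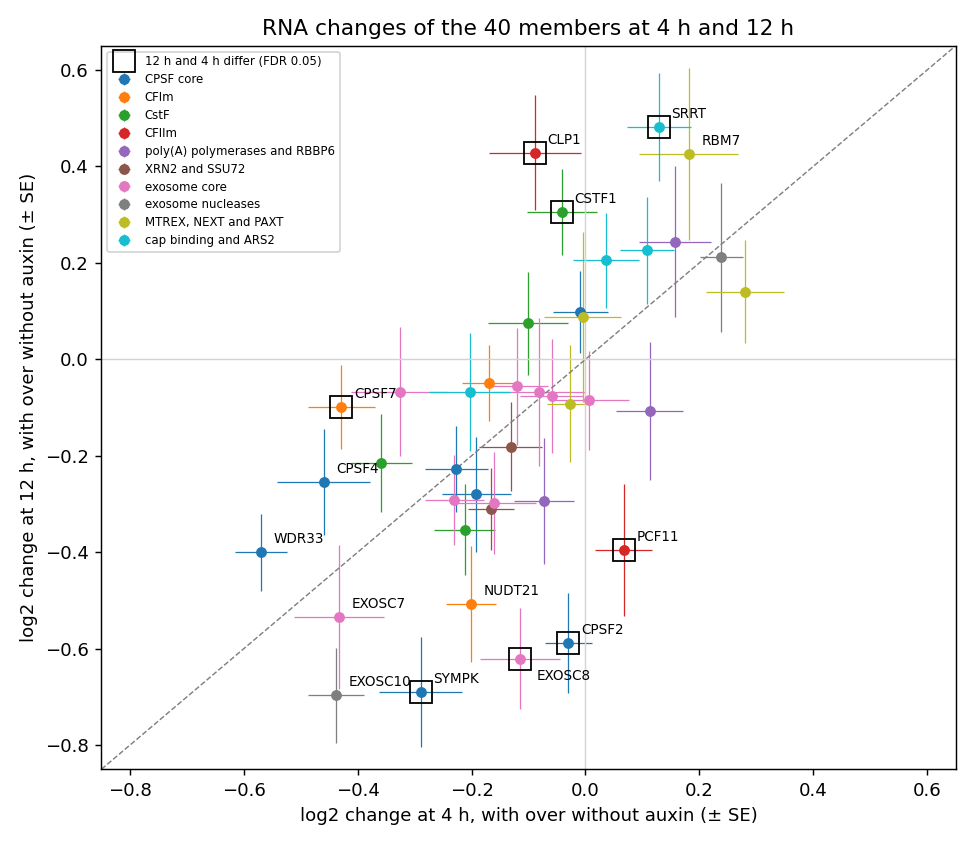
Log2 change at 12 h against that at 4 h, with implied standard errors, for the 40 members coloured by complex; boxes mark the 8 members whose changes differed between the times at an FDR of 0.05, and the dashed line marks equal changes. CPSF2, EXOSC8 and PCF11 lie near 0 at 4 h and well below it at 12 h, and CLP1, SRRT and CSTF1 lie above 0 at 12 h.

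The difference between the times was tested directly, by a Wald z test on the log2 changes in the authors' deposited table with Benjamini-Hochberg adjustment over 14460 genes. It passed for 8 of 40 members, 4 higher at 12 h than at 4 h and 4 lower, against 6.33% and 8.55% of all genes. CPSF2 differed the most, with -0.03 at 4 h and -0.59 at 12 h (difference -0.56 ± 0.11, adjusted p = 1.99e-05 in the Wald test). Next were CLP1, with -0.09 and 0.43 (difference 0.52 ± 0.14), and EXOSC8, with -0.11 and -0.62 (difference -0.51 ± 0.13). The remaining members past this test were PCF11 (-0.46 ± 0.15), SYMPK (-0.40 ± 0.14), SRRT (0.35 ± 0.12), CSTF1 (0.35 ± 0.11) and CPSF7, which stood at -0.43 at 4 h and at -0.10 at 12 h (difference 0.33 ± 0.11). For EXOSC10 the deeper fall at 12 h did not pass as a difference (-0.26 ± 0.11, adjusted p = 0.0995 in the Wald test). The time points come from separate sets of libraries, so time and set cannot be told apart. Implied counts without auxin also differed between the sets. They were 5993 at 4 h and 3945 at 12 h for CPSF2, and 1999 and 4959 for SYMPK. For PCF11 they were 3297 and 1852, for EXOSC8 1462 and 886, and for SRRT 4459 and 7206. CPSF7 had 2568 and 4376, CLP1 870 and 602, and CSTF1 1641 and 1371. How the sets were scaled to each other is not known here.

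Newly made RNA was measured by TT-seq. In the TT-seq comparison for INTS1, 6 members fell (15%, against 10.7% of 13876 genes) and 2 rose (5%, against 13.3%) in the authors' deposited table, or 8 of 40 in either direction against 24.1%. Among genes whose mean count reached 100 the shares were 13.5% lower, 15.9% higher and 29.4% in either direction. The share of members that fell was near that of these genes. The falls were SYMPK (-0.71 ± 0.17, DESeq2 adjusted p = 0.000262), WDR33 (-0.51 ± 0.10, DESeq2 adjusted p = 2.9e-06), EXOSC10 (-0.45 ± 0.11), CSTF3 (-0.45 ± 0.12), CPSF7 (-0.35 ± 0.11) and the exosome ring subunit EXOSC6 (-0.34 ± 0.11). The rises were NCBP1, the large cap-binding subunit (0.38 ± 0.10, DESeq2 adjusted p = 0.00176), and DIS3 (0.36 ± 0.10, DESeq2 adjusted p = 0.00335). Called lower both here and in 4 h RNA were 5 members, against 7.49% of all genes; whether these comparisons share control libraries is not known here. EXOSC6 (-0.12 ± 0.05) and NCBP1 (0.11 ± 0.05) did not pass in 4 h RNA.

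The difference between TT-seq and 4 h RNA was tested in the same way, a test added after the values were seen. By the Wald test 0 members passed, against 0.541% of all genes called higher and 0.728% lower. At an unadjusted p under 0.05 in that test there were 2 members, and the share of all genes there is not given. The members' differences ran from -0.42 (SYMPK) to 0.31 (EXOSC7), with a median standard error of 0.13, so differences of that size were not detectable, and the test does not show that the assays gave equal changes. Members had mean counts of 69 to 4591 in TT-seq, and EXOSC4, the lowest, stood at -0.54 ± 0.24 without passing.

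In the TT-seq comparison for INTS8, a further Integrator subunit, the authors' deposited table has CPSF7 lower (-0.34 ± 0.11, DESeq2 adjusted p = 0.0259) and 0 members rose, against 2.87% and 6.56% of 13592 genes (9.43% in either direction). Among genes whose mean count reached 100 these shares were 3.86% lower, 7.38% higher and 11.2% in either direction. The direction of this comparison was read from its correlation with the INTS1 comparison across genes. At an unadjusted p under 0.05 in DESeq2, 6 members were lower and 1 higher. The share of all genes at that unadjusted p is not given here. WDR33 stood at -0.22 ± 0.12, SYMPK at -0.27 ± 0.14, EXOSC10 at -0.13 ± 0.12 and DIS3 at 0.06 ± 0.08, none past the test. Whether the INTS1 and INTS8 comparisons share libraries is not known here, and the difference between them was not tested.

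The antisense gene at the start of EXOSC10 moved against it. EXOSC10-AS1, a long noncoding RNA on the plus strand at chr1:11099675-11102051, begins 194 bases inside EXOSC10 (chr1:11066618-11099869, minus strand) and runs away from it, across the promoter window printed above. In the authors' deposited table it rose by 1.62 ± 0.24 on the log2 scale at 4 h and by 2.08 ± 0.20 at 12 h (DESeq2 adjusted p = 2.35e-10 and 2.71e-23), while EXOSC10 fell by 0.44 and 0.70. In TT-seq for INTS1, EXOSC10-AS1 rose by 1.38 ± 0.47 (DESeq2 adjusted p = 0.0166), with a mean count of only 16. In TT-seq for INTS8 it stood at 1.26 without passing (mean count 8, DESeq2 adjusted p = 0.272). Its mean count in RNA was 105 at 4 h. Upstream antisense RNAs are a class that Integrator and the exosome are both known to restrict. Whether that holds for EXOSC10-AS1, and why it rose, was not tested. The genes share 195 bases, and since no source states whether counting used strand, reads of those bases cannot be told apart. This pair was picked after its values were seen.

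Such overlaps touched 8 members, 7 of them with a gene of the opposite strand and 1, EXOSC3, with a gene of the same strand. EXOSC8 overlaps the 3' end of SUPT20H by 122 bases, and SUPT20H rose in the authors' deposited table at both times (0.18 ± 0.07 and 0.31 ± 0.13), whereas EXOSC8 fell at 12 h. CSTF2T, an intronless copy of CSTF2, lies wholly inside PRKG1 on the other strand; PRKG1 fell (-0.38 ± 0.10 and -0.71 ± 0.17) and CSTF2T did not pass at either time. CSTF2 and CSTF2T are related copies, so some of their reads could be split between them and both values are uncertain to that degree.

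**Figure D4:**
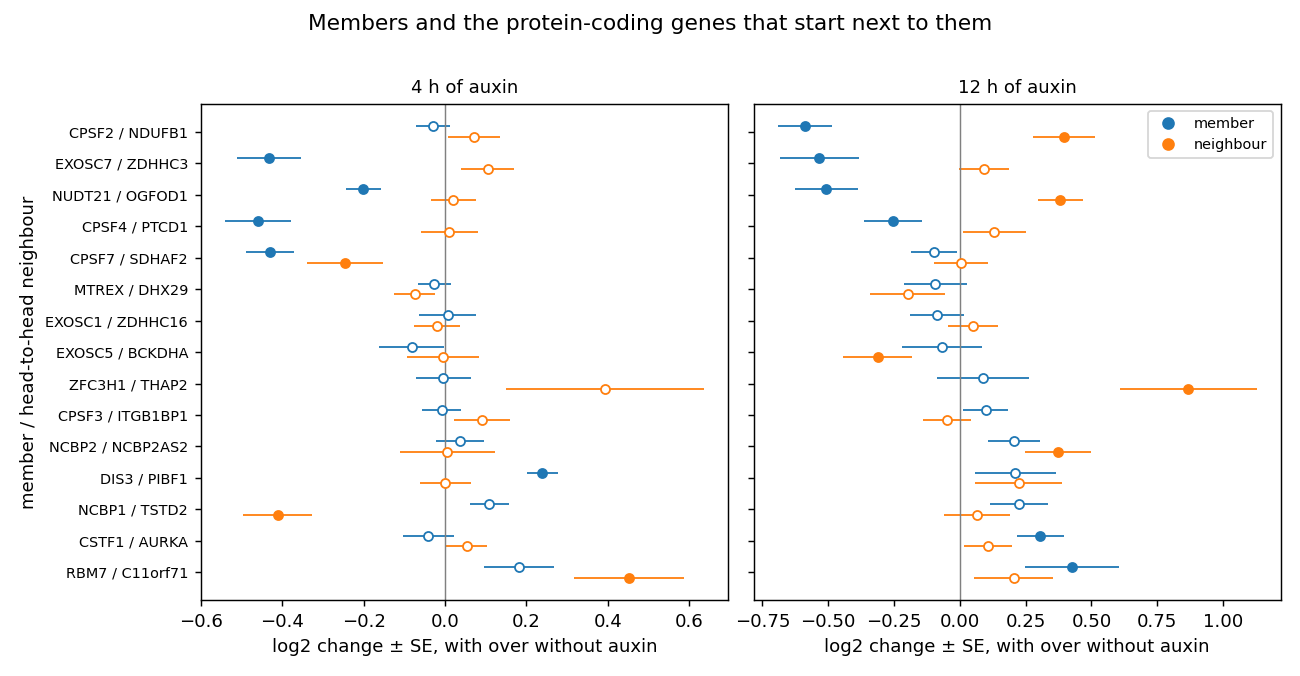
Log2 change with implied standard error of the members and of the protein-coding genes that start within 1000 bases of them on the other strand, at 4 h and 12 h; filled points passed a DESeq2 adjusted p under 0.05. At 12 h CPSF2 and NUDT21 fell while NDUFB1 and OGFOD1, which start beside them, rose.

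Many members start next to a gene read in the other direction. A head-to-head neighbour within 1000 bases was found for 16 of 40 members (40%), against 19.6% of the 14538 genes. By the authors' deposited table, 5 members of these pairs fell at 4 h, and the neighbour fell with it in 1, CPSF7 with SDHAF2 (-0.25 ± 0.09), a succinate dehydrogenase assembly factor 74 bases away. At 12 h, 4 fell, and the neighbour fell in 0 of them and rose in 2. Over all 16 neighbours, 2 fell and 1 rose at 4 h and 1 fell and 4 rose at 12 h, where 19.2% and 19.2% of all genes fell and rose at 4 h and 22.3% and 21.9% at 12 h, so the share of neighbours that rose at 12 h was near that of all genes. NDUFB1, a subunit of respiratory complex I that starts 52 bases from CPSF2, rose by 0.40 ± 0.12 on the log2 scale as CPSF2 fell by 0.59. OGFOD1, a prolyl hydroxylase that starts 230 bases from NUDT21, rose by 0.38 ± 0.09 as NUDT21 fell by 0.51, and it also rose in TT-seq for INTS1 (0.35 ± 0.12, DESeq2 adjusted p = 0.0206). The pairs were examined after the values were seen, and the difference between neighbours was not tested.

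Gene length moved with the calls in the whole table and has to be read beside the members' counts. Of genes under 10 kb, 9.21% fell and 26.1% rose at 4 h, against 26.5% and 13.2% of those over 100 kb. The members had a median length of 28.0 kb, against 24.7 kb over all genes. In the class from 10 to 100 kb, 15 of 29 members fell at 4 h (51.7%, against 22.0% of genes of that class) and 12 of 29 at 12 h (41.4%, against 24.0%). Among the 9 members under 10 kb, 1 fell at 4 h (11.1%, against 9.21% of genes of that class). At 12 h 2 of them fell (22.2%, against 9.89%) and 2 rose (22.2%, against 33.9%). The part of length in these counts was not tested beyond these classes.

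Related genes that are not members were counted by list. Among 15 genes of the PTW/PP1 phosphatase and of termination factors bound to the Pol II tail, 8 fell and 2 rose at 4 h, and 4 fell and 1 rose at 12 h, by the values of the authors' deposited table. Of all genes tested, 19.2% fell and 19.2% rose at 4 h and 22.3% fell and 21.9% rose at 12 h, and the same shares apply to the lists that follow; the 12 h falls of these 15 are near that share. PPP1R10, the targeting subunit of that phosphatase, rose at 4 h (0.42 ± 0.10) and fell at 12 h (-0.43 ± 0.11), and WDR82, its partner, fell at both (-0.39 ± 0.05 and -0.28 ± 0.09). ZC3H4, a restrictor of early noncoding transcription, rose at 4 h (0.42 ± 0.08) and the termination factor TTF2 fell at both times (-0.33 ± 0.05 and -0.65 ± 0.08).

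Of 16 further poly(A) tail and exosome cofactors, 10 fell and 1 rose at 4 h and 8 fell at 12 h by the values of the authors' deposited table. The largest fall at 4 h was that of ZC3H3 (-0.62 ± 0.18, mean count 135), which fell at 12 h too (-0.44 ± 0.14). NRDE2, a partner of MTREX, fell at 4 h (-0.42 ± 0.07) and did not pass at 12 h (0.03 ± 0.09). NCBP3, a further cap-binding protein (-0.39 ± 0.05 and -0.56 ± 0.09), and PHAX, the export adaptor of small nuclear RNA (-0.38 ± 0.06 and -0.49 ± 0.13), fell at both times, and PARN, a deadenylase, rose at 4 h (0.32 ± 0.07). Of 7 cytoplasmic exosome and Ski factors none was called at 4 h, and at 12 h 2 fell (WDR61, -0.37 ± 0.10, and DIS3L2, -0.27 ± 0.11) and 1 rose (PELO, 0.22 ± 0.09). Of the Integrator paralogues of CPSF3 and CPSF2, INTS11 fell at both times (-0.24 ± 0.07 and -0.44 ± 0.11), and INTS9 stood at -0.15 ± 0.10 and -0.27 ± 0.12 without passing.

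**Figure D5:**
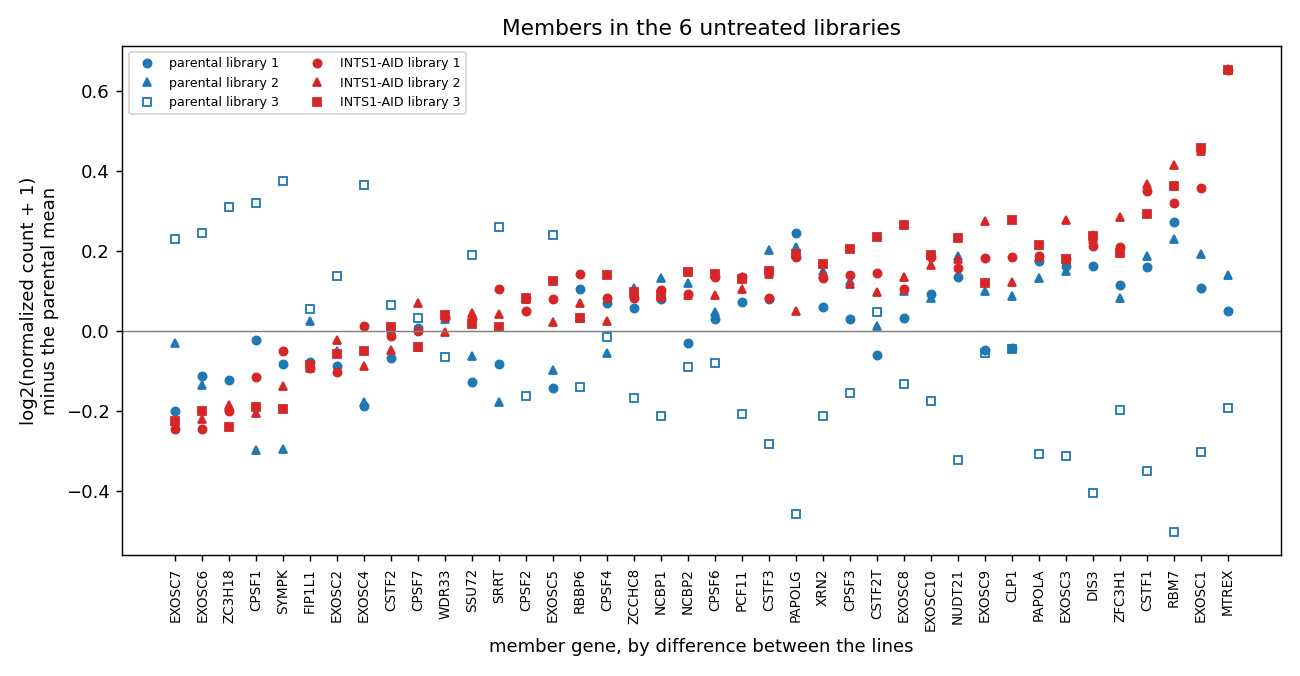
Log2 of the normalized count plus 1 of each member in the 6 untreated libraries, minus the parental mean of that member, ordered by the difference between the lines. Parental library 3 (open squares) lies apart from the other parental libraries for many genes, and MTREX stands 0.65 above the parental mean.

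The last comparison sets the tagged line beside parental cells, both without auxin. Only MTREX, the helicase of NEXT and PAXT, passed the test, with normalized counts of 5284, 5620 and 4464 in parental libraries 1 to 3 and of 8022, 8031 and 8014 in INTS1-AID libraries 1 to 3. The 3 INTS1-AID values nearly coincide and lie above all parental ones (5123 ± 595 against 8022 ± 8.56, SD, n = 3 each, log2 difference 0.65 ± 0.09, SE, limma adjusted p = 0.0201). Thus 1 of 40 members was higher and 0 lower by limma, against 1.85% and 0.369% of 13293 genes. At an unadjusted p under 0.05 in limma the numbers were 6 and 0, and the share of all genes there is not given. MTREX lies on chromosome 5 (chr5:55307989-55425579), where 209 of 592 genes were called higher and the median log2 difference was 0.52, against 37 of 12701 genes on all other chromosomes. The call is lost when parental library 1 or any INTS1-AID library is left out, with log2 differences of 0.65 to 0.68, and the value is 0.56 without parental library 3. With the replicate number as a block the call of MTREX is also lost. With auxin MTREX showed no called change.

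The deviations of the parental libraries followed the G and C content of genes, with a Spearman's rho over genes of 0.71 in parental library 3 and, in the other direction, of -0.53 and -0.68 in parental libraries 1 and 2. In the INTS1-AID libraries it was 0.25, -0.08 and -0.13. Parental library 3 also lay apart from the other parental libraries in many members. Without parental library 3, limma called 8 members higher, against 10.9% of all genes, and 0 lower, against 7.41%. The 8 were CSTF1, CSTF2T, EXOSC1, EXOSC5, EXOSC9, MTREX, SRRT and SSU72. Unadjusted calls of that fit were 13 higher and 1 lower, and the unadjusted share of all genes is not given. EXOSC1, a cap subunit of the exosome core, had counts of 1422, 1507 and 1069 in the parental and of 1689, 1801 and 1810 in the INTS1-AID libraries (log2 difference 0.42 ± 0.13 with all libraries, limma adjusted p = 0.170). CSTF1 had 2072, 2111 and 1454 against 2361, 2392 and 2270 (0.34 ± 0.14, limma adjusted p = 0.280). In both genes parental library 3 was the lowest and every INTS1-AID library was above every parental one.

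Such separation of all libraries, INTS1-AID above parental, held for 13 members, against 16.0% of all genes, namely MTREX, EXOSC1, CSTF1, RBM7 (635 ± 173 against 797 ± 26.4), ZFC3H1 (2341 ± 268 against 2735 ± 92.8), EXOSC3 (1352 ± 238 against 1551 ± 61.3), PAPOLA (12798 ± 2242 against 14504 ± 170), CLP1 (1033 ± 55.4 against 1183 ± 64.8), EXOSC9 (2624 ± 161 against 2998 ± 165), EXOSC10 (5641 ± 573 against 6370 ± 61.8), EXOSC8 (1828 ± 149 against 2052 ± 123), CSTF2T (1509 ± 56.9 against 1686 ± 82.2) and CPSF6 (4817 ± 229 against 5244 ± 102, SD, n = 3 in each group). It held in the other direction for 3, against 14.7% of all genes, FIP1L1 (3127 ± 149 against 2934 ± 9.10), EXOSC6 (3251 ± 500 against 2767 ± 41.4) and EXOSC7 (1304 ± 198 against 1102 ± 9.32). Parental library 3 was the lowest of the 6 libraries in 12 of the 13, CSTF2T being the exception. WDR33, the member with the largest fall at 4 h, differed by 0.02 ± 0.07 between the untreated lines (6513, 6500 and 6083 against 6515, 6352 and 6540), and the lines overlap.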

How the data were processed

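RNA of 17 HEK293T libraries was sequenced as stranded dUTP libraries with 1 of 2 kits, per the labels' protocols. STAR 2.7.3a, DESeq2 and the builds hg38 and dm6 appear, without roles, in the submitters' processing notes, with annotation, counter and strand setting not given in the sources used here. Deposited signal values are normalized counts per gene and library for the 6 untreated libraries, which the authors made by dividing read counts by 1 factor per library, since all values are whole multiples of a step. The deposited log2 values are fold changes of each comparison, and the p-value columns hold p and adjusted p, per the file headers. The authors' mean normalized counts, rounded, and their standard errors are score columns, per the file headers. For the other 11 libraries nothing but the comparisons was read, and depth is unknown; 0 columns of values per library had no sample.

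The count test gave way to limma 3.58.1 (trend, robust; R 4.3.3) on log2(normalized count + 1) for the untreated lines, with genes of a mean of at least 10 (all 40 members passed) and an FDR of 0.05. Other comparisons used the authors' adjusted p under 0.05. Standard errors were implied by each log2 change and p (largest relative error 8.53e-13 where the authors list one), and group levels by the mean, fold change and numbers of libraries. Differences between times or assays were tested with a Wald z test; for 12 genes at 4 h and 8 at 12 h p is listed as 0 and z was set to 38. The tests were tried on simulated data that held no G and C trend and no deviating library. That trial therefore does not cover the deviations of the parental libraries. Members and lists were chosen with earlier results of these data known, and values were given in full for the 6 largest rises and falls per comparison and for members whose untreated groups do not overlap.

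Directions were checked against a deposited expression column. For 4 h and TT-seq of INTS1 it matched the denominator group (median error 0.0013 and 0.0013 on the log2 scale). For 12 h it matched neither group (0.50 for the denominator and 0.26 for the numerator) and came closest to a mix of 2 parts numerator and 1 part denominator (0.029), so which libraries the authors averaged there is not known, and for TT-seq of INTS8 it matched the numerator, so both directions rest on the correlation of their fold changes across 8306 genes with 4 h RNA (r = 0.83) and with TT-seq of INTS1 (r = 0.88). GC content came from GENCODE v29, and promoters from RefSeq.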

Additional observations from a re-analysis of the deposited data

Results flagged for a closer look

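For 8 members the log2 change with auxin differed between 12 h and 4 h by the Wald test of the difference at an FDR of 0.05. The values, 12 h minus 4 h, were -0.56 for CPSF2, -0.51 for EXOSC8, -0.46 for PCF11 and -0.40 for SYMPK, and 0.52 for CLP1, 0.35 for SRRT, 0.35 for CSTF1 and 0.33 for CPSF7. These values split complexes: CPSF2 and SYMPK were lower at 12 h within a CPSF core whose other 5 genes did not pass this test. PCF11 and CLP1, which form CFIIm, had differences of opposite sign. Time and set of libraries cannot be told apart in these differences. At an FDR of 0.01, CPSF2, CLP1 and EXOSC8 passed.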

How the results depend on the processing

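For the untreated lines, limma called 295 genes, against 1105 after removal of each library's GC trend, 824 by DESeq2 on recovered reads, 281 by edgeR 4.0.16 on the same reads, 11 at an FDR of 0.01 and 1 to 2432 with 1 library left out. The number of members called higher, 1 in the report, was 0 at an FDR of 0.01 and 0 to 8 with 1 library left out. Same-numbered libraries of the lines did not deviate together (r = -0.07, 0.004 and -0.11 over 13293 genes). Since the parental deviations followed the G and C content of genes, this cannot show whether equal numbers mark a shared batch. With the replicate number as a block, 6 genes and 0 members were called, so the call of MTREX was lost. With a log2 change of at least 0.3 required, 0 members rose and 7 fell at 4 h, and 5 CPSF core falls became 2 and 3 CFIm falls 1; at 12 h 6 CPSF core falls became 3 and 4 exosome core falls 2; 18 members in place of 28 were called at either time and 3 in place of 11 at both, all 3 lower. At an adjusted p under 0.01, 3 CPSF core genes fell at 12 h, 0 members fell in TT-seq for INTS8, and at an FDR of 0.01 the change differed between the times for 3. The other counts of members recomputed, by direction in each comparison, over both times, and for CPSF core, CFIm and exosome core, stayed within 1.5 times of those given. No called value of a single member changed sign, and 1158 of 1200 kept their side of the threshold, 35 losing and 7 gaining a call. These numbers are a weak check. In the deposited comparisons the settings that moved a call were stricter cuts on the same values, which cannot change a sign or add a call. In the untreated lines 39 of 40 members were not called to begin with. The shifts at 0.3 follow from its construction, since many called changes are smaller; the cause of the others was not tested. Counts over both times and by complex were added after the data were seen. For the auxin and TT-seq comparisons, shares of all genes at these stricter settings are not given here. The depth of the 11 auxin libraries is unknown, and no library could be left out there.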
